A study of Mus musculus with 71 samples.

Results

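The regions described here are the distal H3K27me3 peaks that were listed in wild-type mouse embryonic stem cells (mESCs) and had no counterpart in cells without 3 linker histone H1 variants. They were selected on the deposited peak lists themselves. A WT peak was taken when it lay on an assembled chromosome, when its centre was more than 10 kb from every annotated transcription start of the mm9 build (NCBIM37), and when no peak of the H1-TKO list overlapped it by 1 bp or more. Of 6789 WT peaks on assembled chromosomes, 1528 were distal, and 952 of these met the rule. The other 576 distal WT peaks overlapped an H1-TKO peak and are called kept. Because presence and absence in these 2 lists chose the members, their score, width and number are a description without a test.

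The study asked how H3K27me3 returns to chromatin after DNA replication and whether linker histone H1 takes part. WT samples were R1 mESCs, and H1-TKO samples were R1 mESCs in which H1c, H1d and H1e had been knocked out with CRISPR/Cas9 (the pX260 vector) and single-cell clones picked, both grown on gelatin with serum and LIF. ChIP-seq used an antibody to H3K27me3 with Drosophila S2 chromatin added as a spike-in, and 1 peak list per genotype, of replicate 1, was analysed here, so no value over peaks has a replicate error. RNA-seq of the same genotypes held 2 libraries per genotype and was the only other readout used. The labels do not give the number of clones behind a library, so effects of the knockout and of a clone cannot be told apart.

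H3K27me3 is placed by Polycomb repressive complex PRC2, whose subunit EZH2 is the methyltransferase and whose subunit EED binds the finished mark and stimulates further methylation next to it. In mESCs the mark is best known over CpG-rich promoters of silent developmental regulators, and weaker, broader methylation covers much of the intergenic genome. Linker histone H1 binds nucleosomes where DNA enters and leaves and compacts the fibre, and compact nucleosome arrays are good substrates of PRC2.

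The sequences of the 6 highest-scoring members are shown first, since they are the clearest members, followed by those of the 2 kept distal peaks with the highest score for contrast. Each is the 300 bp around the centre of the peak in NCBIM37, read from the reference genome, and capitals mark CpG dinucleotides.
WT only, chr8:64027943-64028242, + strand: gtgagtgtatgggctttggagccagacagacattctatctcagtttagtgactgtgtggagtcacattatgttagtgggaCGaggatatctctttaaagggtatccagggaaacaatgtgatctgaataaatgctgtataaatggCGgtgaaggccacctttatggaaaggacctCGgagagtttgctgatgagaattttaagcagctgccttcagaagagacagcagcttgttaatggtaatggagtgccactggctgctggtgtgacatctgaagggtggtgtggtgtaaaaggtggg
WT only, chr7:144062447-144062746, + strand: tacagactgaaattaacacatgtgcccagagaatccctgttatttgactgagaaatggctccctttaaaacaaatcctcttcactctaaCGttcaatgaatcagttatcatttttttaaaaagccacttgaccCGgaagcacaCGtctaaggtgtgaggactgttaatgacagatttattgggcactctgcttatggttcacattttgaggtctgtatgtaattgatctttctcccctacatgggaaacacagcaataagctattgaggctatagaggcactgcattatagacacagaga
WT only, chr2:18125158-18125457, + strand: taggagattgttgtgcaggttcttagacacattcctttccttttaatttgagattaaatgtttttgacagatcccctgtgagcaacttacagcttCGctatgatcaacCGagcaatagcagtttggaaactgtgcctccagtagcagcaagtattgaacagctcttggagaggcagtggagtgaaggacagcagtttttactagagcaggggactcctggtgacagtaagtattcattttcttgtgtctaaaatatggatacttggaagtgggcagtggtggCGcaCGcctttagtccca
WT only, chr13:95365991-95366290, + strand: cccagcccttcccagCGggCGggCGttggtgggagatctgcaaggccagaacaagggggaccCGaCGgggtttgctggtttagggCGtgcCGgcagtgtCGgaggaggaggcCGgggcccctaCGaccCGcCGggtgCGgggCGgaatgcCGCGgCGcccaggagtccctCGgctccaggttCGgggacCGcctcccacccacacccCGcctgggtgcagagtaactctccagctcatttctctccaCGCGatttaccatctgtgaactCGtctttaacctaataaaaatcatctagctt
WT only, chr17:84496697-84496996, + strand: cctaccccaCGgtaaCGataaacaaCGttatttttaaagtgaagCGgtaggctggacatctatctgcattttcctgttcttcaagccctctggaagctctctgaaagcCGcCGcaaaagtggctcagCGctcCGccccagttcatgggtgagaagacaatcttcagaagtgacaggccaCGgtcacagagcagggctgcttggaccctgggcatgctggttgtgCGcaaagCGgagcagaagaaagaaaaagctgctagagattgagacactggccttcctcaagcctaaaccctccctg
WT only, chr13:108435338-108435637, + strand: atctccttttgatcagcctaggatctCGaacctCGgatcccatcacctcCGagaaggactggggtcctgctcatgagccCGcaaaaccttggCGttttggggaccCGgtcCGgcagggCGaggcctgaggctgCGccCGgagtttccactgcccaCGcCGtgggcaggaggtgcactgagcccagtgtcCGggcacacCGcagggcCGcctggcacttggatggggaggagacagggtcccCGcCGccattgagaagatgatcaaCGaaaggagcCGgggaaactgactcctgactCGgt
Kept, chr9:35112835-35113134, + strand: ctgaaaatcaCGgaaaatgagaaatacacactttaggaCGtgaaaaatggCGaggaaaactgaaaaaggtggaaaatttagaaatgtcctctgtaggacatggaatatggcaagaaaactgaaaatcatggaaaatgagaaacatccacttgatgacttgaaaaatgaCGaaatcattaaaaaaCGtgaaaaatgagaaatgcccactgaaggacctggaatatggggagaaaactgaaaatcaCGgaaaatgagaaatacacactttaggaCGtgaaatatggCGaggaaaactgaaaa
Kept, chr4:70039068-70039367, + strand: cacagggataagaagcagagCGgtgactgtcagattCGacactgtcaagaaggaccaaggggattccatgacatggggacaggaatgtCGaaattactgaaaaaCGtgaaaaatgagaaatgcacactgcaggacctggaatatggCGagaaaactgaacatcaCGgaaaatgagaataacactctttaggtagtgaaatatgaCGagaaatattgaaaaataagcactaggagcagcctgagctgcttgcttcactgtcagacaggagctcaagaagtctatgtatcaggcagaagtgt

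The 6 member windows were not of 1 kind. Those on chromosomes 8, 7 and 2 were poor in CpG, with 3 to 4 CpG in 300 bp and a G+C content of 46.0%, 39.7% and 44.3%. Both windows on chromosome 13 were CpG-rich, with 24 and 20 CpG and CpG observed over expected ratios of 0.773 and 0.659, above the 0.6 often used to define a CpG island. The window on chromosome 17 lay between them with 11 CpG and a ratio of 0.529. All 31-base words of the windows on chromosomes 8, 7, 13 and 17 occurred once in the NCBIM37 sequence. The kept peak on chromosome 9 differed, because only 55.2% of its words were unique and short A-rich units recur along the printed window. In the kept peak on chromosome 4 the share was 93.0%, but its window holds near copies of the same units. The stretch tgaaaaatgagaaatg, for example, is in both. These kept peaks scored 3100 and 1673.55, against a median of 96.7 in kept distal peaks, so they are not typical of that set.

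Across all members, the WT score was low, which is the negative log10 of the peak caller's p-value multiplied by 10. The median was 57.1 with quartiles of 52.9 and 68.1, against a median of 96.7 in kept distal peaks, and the lowest score in the list of members was 50.02, just above the limit of 50 at which the lists begin. Of the 952 members, 380 (39.9%, 95% interval 36.8 to 43.1) scored under 55, against 39 of 576 kept distal peaks (6.8%, 4.9 to 9.1). Only 53 members scored 100 or more (5.6%), against 278 kept distal peaks (48.3%). Members were also narrow, with a median width of 227 bp against 602.5 bp, and 391 of them (41.1%) were narrower than 200 bp against 51 kept distal peaks (8.9%). Together they covered 0.323 Mb, which was 39.8% of the length of all distal WT peaks, although they were 62.3% of their number.

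**Figure D1:**
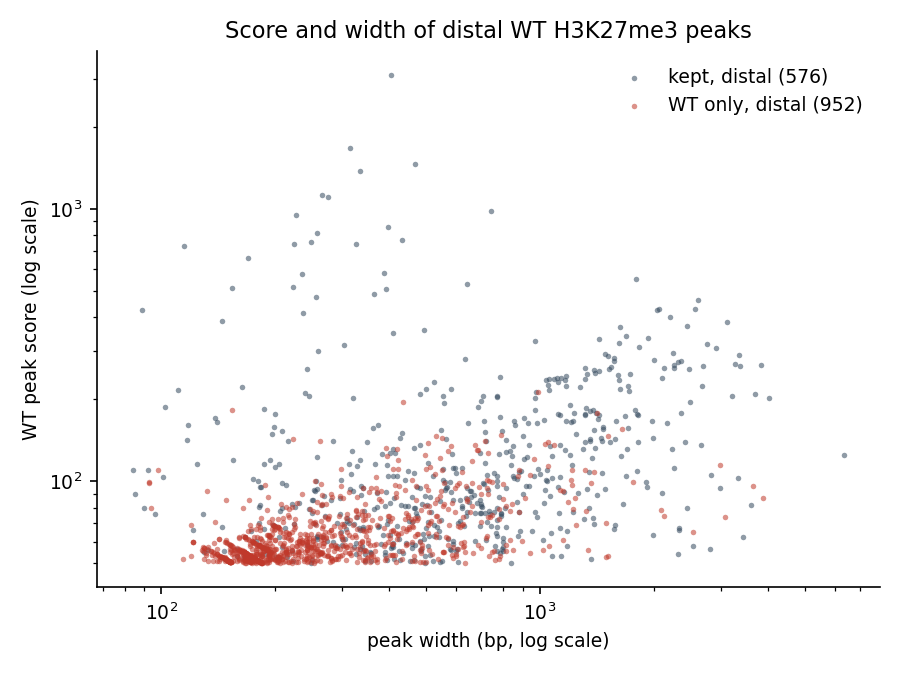
Each point is 1 distal WT H3K27me3 peak, with its width in bp on the x axis and its WT score on the y axis, both on log scales. Members (red) crowd at the low left with a median of 227 bp and 57.1, and kept distal peaks (dark) reach a score of 3100.

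The share of WT peaks without an H1-TKO counterpart was 45.1% over all 6789 peaks on assembled chromosomes, 34.3% (32.6 to 36.1) of 3009 promoter peaks within 1 kb of a transcription start, and 62.3% (59.8 to 64.7) of distal peaks. It rose with distance, from 57.5% (52.8 to 62.0) at 10 to 20 kb to 61.5% at 20 to 50 kb, 66.1% at 50 to 100 kb and 69.1% (62.7 to 75.0) beyond 100 kb. Over the same 4 ranges the median score of distal WT peaks was 69.1, 62.9, 59.8 and 61.9, and their median width 389, 315.5, 296 and 207.5 bp. Within a narrow range of score the distal share stayed above the promoter share up to a score of 150. Between 50 and 55 it was 90.7% (87.5 to 93.3) of 419 distal peaks against 67.1% (61.8 to 72.1) of 337 promoter peaks, and between 100 and 150 it was 30.6% (23.5 to 38.4) against 20.5% (17.3 to 23.9). From 150 to 200 the shares were 6.8% and 7.6%, and only 1 of 115 distal peaks with a score of 200 or more was a member (0.9%). When peaks were split by width as well, 95.4% (93.1 to 97.0) of distal peaks under 300 bp with a score of 50 to 60 were WT only against 81.4% (75.5 to 86.4) of promoter peaks, with median widths of 179 bp and 214 bp. Among peaks of 300 bp or more with a score of 50 to 60 the shares were 63.4% (55.5 to 70.8) and 57.5% (52.2 to 62.8), with intervals that overlap. With a score of 60 to 100 they were 75.1% (68.6 to 80.9) and 68.1% (59.6 to 75.8) under 300 bp, and 50.9% (45.4 to 56.4) and 43.0% (39.8 to 46.2) at 300 bp or more, also with overlapping intervals.

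**Figure D2:**
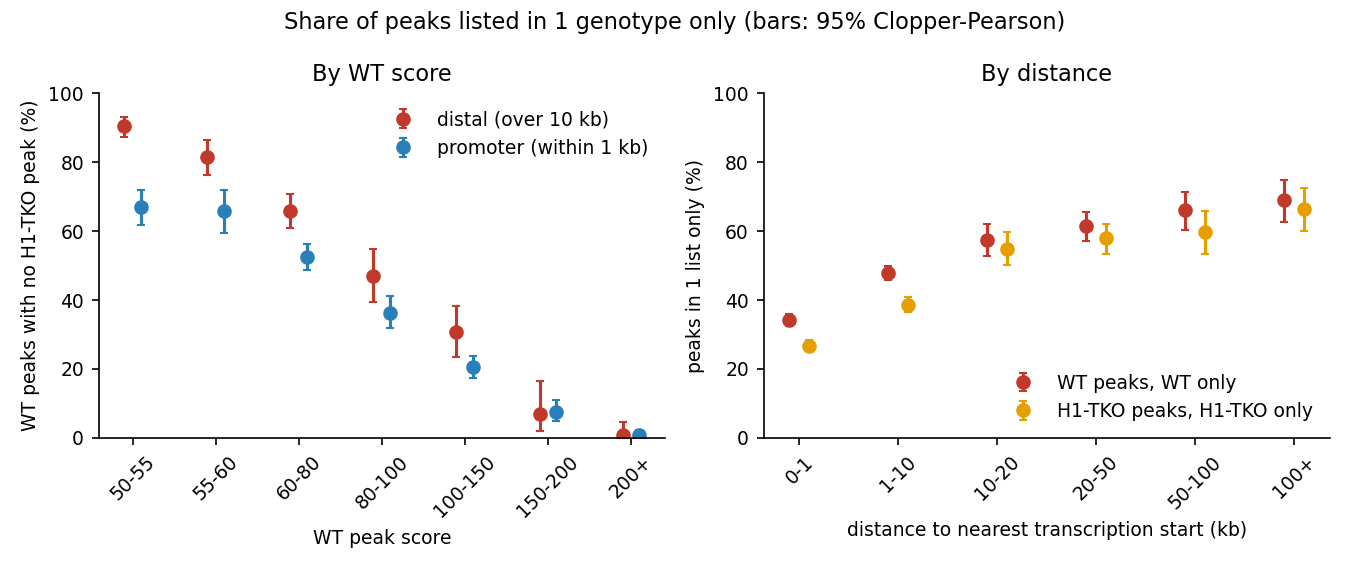
Left, the share (%) of WT peaks with no overlapping H1-TKO peak by WT score, for distal (red) and promoter (blue) peaks. Right, the share (%) of peaks listed in 1 genotype only by distance to the nearest transcription start in kb, for the WT list (red) and the H1-TKO list (orange). Bars are 95% Clopper-Pearson intervals, and the distal share falls from 90.7% at scores of 50 to 55 to 0.9% at 200 or more.

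The same rule with the lists exchanged gave nearly as many regions. Of 1417 distal H1-TKO peaks, 832 had no WT peak (58.7%, 56.1 to 61.3), beside 37.9% of all H1-TKO peaks on assembled chromosomes. Their median score was 57.2 and their median width 234.5 bp, against 57.1 and 227 bp in the members. The shares under a score of 55 were 40.6% (37.3 to 44.1) and 39.9% (36.8 to 43.1). The WT list as a whole was longer, with 6789 against 6107 peaks on assembled chromosomes, and promoter peaks in 1 list only numbered 1033 in WT (34.3%) and 747 in H1-TKO (26.8%, 25.1 to 28.4). In score and width the WT-only distal peaks and their mirror image lay side by side.

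A limit of 1 bp and a limit of 10 kb define the members. The member nearest to an H1-TKO peak, chr15:30577394-30577836 in an intron of Ctnnd2 (a neuronal catenin), touched its neighbour with no base between them, and the next, chr9:56642833-56643985, was separated from one by 1 bp. Just outside, the kept peaks chr4:147777238-147777723 and chr17:26568678-26569319 shared only 8 bp and 10 bp with an H1-TKO peak. The scores inside were 58.08 and 60.84 and those outside 56.33 and 76.7. At the other limit, the members closest to a transcription start were 10027 bp and 10030 bp away with scores of 57.6 and 54.61, and the nearest WT-only peaks outside were at 9984 bp, near Lmtk3 with a score of 54.61, and at 9930 bp, in intergenic DNA 15897 bp from Hoxb1 with a score of 92.75.

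Most members stood alone. An H1-TKO peak lay within 1 kb of 122 members (12.8%, 10.8 to 15.1), and for 66 of these it was a peak that overlapped another WT peak. These 122 were wider and scored higher (medians of 441 bp and 62.95) than the 830 others (209.5 bp and 56.4). For all members the median distance to the nearest H1-TKO peak was 77074 bp.

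The distance to the nearest kept peak had a median of 168163.5 bp, with quartiles of 37643 bp and 488776 bp. Kept distal peaks were closer to another kept peak, with a median of 26862 bp, and H1-TKO-only distal peaks had a median of 171776.5 bp. A kept peak lay within 1 kb of 67 members (7.0%, 5.5 to 8.9) and of 175 kept distal peaks (30.4%, 26.6 to 34.3). Within 100 kb the shares were 41.3% and 64.2%, and within 1 Mb 90.1% and 94.8%. No other WT peak of any kind was centred within 10 kb of 743 members (78.1%), against 273 kept distal peaks (47.4%). The nearest WT neighbour was kept for 473 members, another member for 276 and a WT-only peak within 10 kb of a start for 203.

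**Figure D3:**
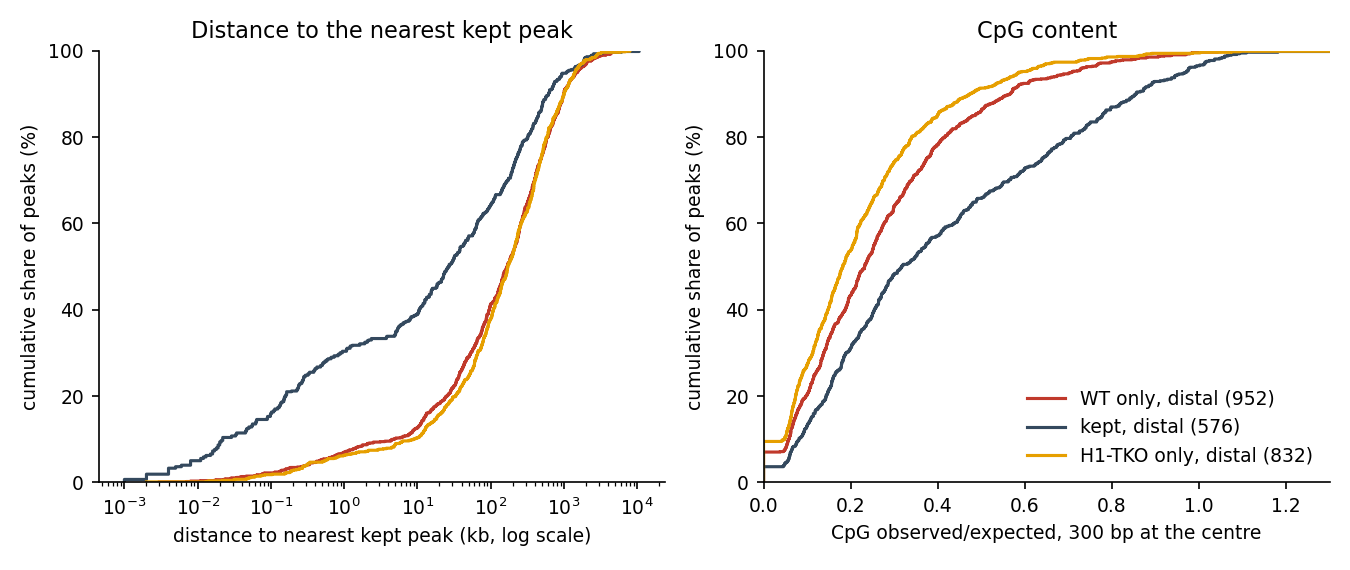
Cumulative shares (%) of members (red), kept distal peaks (dark) and H1-TKO-only distal peaks (orange). Left, by distance to the nearest kept peak in kb on a log scale, where the red and orange curves run together and the dark curve lies to their left. Right, by CpG observed over expected ratio in the 300 bp around the centre, where the dark curve lies to the right.

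The 5 members farthest from a kept peak were on chromosomes 16 and 1. The farthest, chr16:51465772-51465924, was 5.9 Mb away (5925790 bp), 153 bp wide and scored 50.27. The second, chr16:50076345-50076486, had Cd47 as its nearest coding gene, the cell-surface signal that restrains phagocytosis, with a start 208334 bp away. A pair in an intron of Trat1, a T cell receptor adaptor gene, was separated by 27 bp and scored 89.24 and 53.71 at 4.4 Mb from a kept peak (4417357 bp and 4417649 bp). The third by distance, chr1:114322679-114322846, lay 5711855 bp from a kept peak but only 30887 bp from an H1-TKO peak. These regions were narrow (142 to 265 bp), and 4 of the 5 had a score under 55.

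Members that followed each other with no kept peak between them formed 672 runs, of which 474 held 1 member. The longest held 7 members over 7.0 Mb of chromosome 16 (chr16:44483010-51465924), with scores of 50.27 to 89.24, 7 further WT-only peaks within 10 kb of a transcription start and 1 H1-TKO-only peak inside. A shorter and denser run of 6 members spanned 0.662 Mb on chromosome 5 (chr5:119592631-120254244) around Tbx5, the T-box factor of heart and forelimb development. It reached the highest score of these runs, 140.5, with a median of 76.9, and no H1-TKO peak lay inside. Chromosome 8 held 2 runs of 6, chr8:42709631-46019959 near the protocadherin Fat1 with a median score of 55.7 and chr8:98473230-101223799 with a median of 60.3, and these contained 4 and 2 H1-TKO-only peaks.

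The member with the highest score, 212.79, was chr8:64027600-64028585, 986 bp wide in an intron of Palld, the gene of the actin-bundling protein palladin, 15454 bp from its nearest start. The closest H1-TKO peak was 917070 bp away. The second, chr7:144062379-144062814, scored 195.6 in intergenic DNA 23698 bp from the start of Mgmt, whose product repairs O6-alkylguanine in DNA. The third, chr2:18125231-18125384, scored 182.99 over only 154 bp in an exon of Dnajc1, the gene of an endoplasmic reticulum co-chaperone. The nearest H1-TKO peaks of these other two were 439966 bp and 164379 bp away.

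On chromosome 13, chr13:95365432-95366848 (score 178.2, 1417 bp) lay 192758 bp from Tbca, a tubulin folding cofactor, and chr13:108435093-108435882 (score 147.4, 790 bp) lay 183982 bp from any annotated start. An intergenic region on chromosome 17, chr17:84496023-84497669 (score 155.31, 1647 bp), had Zfp36l2, an mRNA decay factor, as its nearest gene at 89631 bp. In an intron of Anks1b, which encodes a postsynaptic ankyrin-repeat protein, chr10:90293122-90294638 (score 146.73, 1517 bp) lay 2211 bp from an H1-TKO peak and 1778 bp from a kept one. The eighth, chr18:38185066-38185598, scored 146.67 with an H1-TKO peak 244 bp away, 28104 bp from Arap3, the gene of a GTPase-activating protein.

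The 5 widest members were 3879 bp in an intron of Wnt3 (chr11:103671550-103675428, score 86.77), 3661 bp in an intron of Nfix (chr8:87307944-87311604, 96.06), 3080 bp in an intron of Lmx1b (chr2:33438841-33441920, 73.77), 2996 bp near Arhgef1 (chr7:25728333-25731328, 114.26) and 2534 bp near Zic4 (chr9:91245002-91247535, 65.19). Wnt3 is the ligand needed for the primitive streak, Nfix and Lmx1b are transcription factors of muscle and brain and of limb and dopamine neurons, Zic4 is a cerebellar zinc finger factor, and Arhgef1 is a guanine nucleotide exchange factor. All 5 had a kept peak within 13 kb, at 12145, 7991, 4448, 8650 and 1496 bp, unlike the median member.

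By position, 669 members were intergenic (70.3%, 67.3 to 73.2), 231 lay in introns (24.3%) and 52 in exons (5.5%, 4.1 to 7.1). Kept distal peaks were more often exonic (84 of 576, 14.6%, 11.8 to 17.7), so that only 38.2% (30.0 to 47.0) of exonic distal WT peaks were members against 64.3% (61.3 to 67.2) of intergenic ones. Exonic shares in H1-TKO-only distal peaks were 4.7% (3.4 to 6.4). In all, 283 members fell inside 244 host genes, 213 of which held 1 member. The host genes had a median length of 134.1 kb, against 71.0 kb for hosts of kept distal peaks. The rule itself favours long genes, since a centre over 10 kb from every start needs a gene that reaches that far, and the median of all protein-coding genes was 15.5 kb. Scn8a, with 2 members, was given a length of 7.4 kb, which is too short to hold them. Its length is thus not that of the gene model around the members, and the medians of host genes are approximate. Anks1b (1099.3 kb) held 4 members with scores of 54.89 to 146.73. An annotated model of 4434.9 kb on chromosome 8, Gm20388, also held 4, with scores of 51.53 to 57.59. Galntl6 (a glycosyltransferase gene), Mid1 (a microtubule-bound ubiquitin ligase), Ostm1 (a lysosomal chloride channel subunit) and Rims1 (a presynaptic active zone protein) held 3 each, and of these Galntl6 and Rims1 held no kept distal peak.

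Families of genes, taken by the prefix of the symbol of the gene with the nearest start, were few. Developmental regulators such as Hox, Pax, Sox, Tbx, Wnt and Nkx genes were nearest to 26 members (2.7%, 1.8 to 4.0), among them Nkx2-1, Nkx6-1, Pax2, Pax6, Lhx5, Dlx2 and Tbx5. The shares were 4.3% (2.8 to 6.3) in kept distal peaks, 2.4% (1.5 to 3.7) in H1-TKO-only distal peaks and 0.8% of all annotated genes. Here and below, the share of annotated genes counts genes and the other shares count peaks, so they are not in like units. Several peaks can have the same nearest gene. Genes of neuronal adhesion and glutamate receptors, including Grin2b, Grm5, Cntnap4 and Nrxn3, were nearest to 14 members (1.5%, 0.8 to 2.5), 6 kept distal peaks (1.0%, 0.4 to 2.3), 5 H1-TKO-only distal peaks (0.6%, 0.2 to 1.4) and 0.4% of annotated genes. The prefixes also take in cadherins outside neurons, such as Cdh5 of endothelium. Olfactory, vomeronasal and taste receptor genes and their pseudogenes were nearest to 8 members (0.8%, 0.4 to 1.6), 10 kept distal peaks (1.7%, 0.8 to 3.2) and 6 H1-TKO-only distal peaks (0.7%, 0.3 to 1.6), while they made up 5.1% of annotated genes. Intervals of the members and the kept distal peaks overlap for all 3 families.

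In the 300 bp around the centre, the median G+C content was 48.7% (95% interval of the median 48.0 to 49.0) in members, 52.3% (51.7 to 53.3) in kept distal peaks and 48.2% (47.7 to 48.7) in H1-TKO-only distal peaks. The median CpG observed over expected ratio was 0.232 (0.216 to 0.249), 0.317 (0.286 to 0.366) and 0.182 (0.170 to 0.196), so that members were intermediate. Windows with a ratio of at least 0.6 and at least 50% G+C were 58 of 952 members (6.1%, 4.7 to 7.8), 143 of 576 kept distal peaks (24.8%, 21.3 to 28.6), 35 of 832 H1-TKO-only distal peaks (4.2%, 2.9 to 5.8) and 28.8% (26.0 to 31.6) of WT-only promoter peaks. Read the other way, 69.8% (65.9 to 73.4) of distal WT peaks with a ratio under 0.2 were members and 31.4% (25.5 to 37.9) of those at 0.6 or more. CpG content moved with width and score: members of 300 bp or more had a median ratio of 0.303 and narrower ones 0.195, and their median scores were 69.2 and 54.75. In peaks of 300 bp or more the median ratio was 0.303 in members, 0.354 in kept and 0.210 in H1-TKO-only distal peaks, and the median G+C content 51.7%, 53.7% and 49.7%. In narrower peaks the ratios were 0.195, 0.251 and 0.171, and the G+C content 47.0%, 47.0% and 47.3%.

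Of the short words searched on both strands, CGCGCG was in 13 members (1.4%, 0.7 to 2.3), 8.9% (6.7 to 11.5) of kept distal peaks and 12.1% of windows of the same length around 86842 annotated transcription starts. CCCGCCC, a run of the kind bound by SP and KLF factors, was in 2.9% (2.0 to 4.2), 9.9% (7.6 to 12.6) and 24.2%. GAGAGA was in 288 members (30.3%, 27.3 to 33.3) against 24.8% (21.3 to 28.6) of kept distal peaks, CACACA in 28.2% (25.3 to 31.1) against 23.3% (19.9 to 26.9) and CAGCAG in 33.2% (30.2 to 36.3) against 35.4% (31.5 to 39.5). These 3 shares had intervals that overlap, and around transcription starts they were 24.1%, 21.0% and 35.8%. In H1-TKO-only distal peaks CGCGCG was in 1.6% (0.8 to 2.7) and CCCGCCC in 3.2% (2.1 to 4.7), so these low shares were not particular to members. GAGAGA was there in 28.4% (25.3 to 31.6), CACACA in 33.7% (30.4 to 37.0) and CAGCAG in 34.4% (31.1 to 37.7). None of the 5 words contains another, although CGCGCG and CCCGCCC both count CpG. In 84.8% (82.3 to 87.0) of members and 81.4% (78.0 to 84.5) of kept distal peaks every 31-base word occurred once in the NCBIM37 sequence. Only exact words of that sequence were counted, so diverged copies and copies absent from it were missed. Windows with under 50% unique words were 3 members (0.3%) and 8 kept distal peaks (1.4%, 0.6 to 2.7). All of these were in peaks under 300 bp, where they made up 0.476% of 630 members and 6.78% of 118 kept distal peaks, and the median share of unique words there was 100% in members and 92.6% in kept distal peaks.

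Members were spread unevenly over chromosomes. Over 2654.9 Mb there were 0.359 members per Mb, and chromosome 8 held 131 of them, or 0.994 per Mb. It carried 13.8% of the members on 5.0% of the assembled length, and 11.1% of kept distal peaks. Chromosome 12 followed with 0.511 per Mb (62 members), then chromosome 15 with 0.483 (50) and chromosome 1 with 0.477 (94). The X chromosome held 8 members (0.048 per Mb) and the Y chromosome none, as no peak of either list was on it. Chromosome 14 held 18 (0.144 per Mb). Of 543 blocks of 5 Mb, 362 held a member, and of the 7 blocks with 9 or more members, 4 were on chromosome 8.

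The distal peaks of the H1-TKO list had another distribution. On chromosome 8 the WT list held 195 distal peaks and the H1-TKO list 140, with 73 found in H1-TKO only (0.554 per Mb). On chromosome 1 the order was turned, with 169 distal WT and 232 distal H1-TKO peaks, 94 members and 151 H1-TKO-only peaks (0.766 per Mb). On chromosome 14 there were 31 and 61, with 49 of the 61 in H1-TKO only (80.3%, 68.2 to 89.4). The WT-only share of distal WT peaks varied less, from 48.9% (34.1 to 63.9) on chromosome 19 to 79.1% (64.0 to 90.0) on chromosome 16 among autosomes, with 67.2% (60.1 to 73.7) on chromosome 8 and 55.6% (47.8 to 63.2) on chromosome 1. Without chromosomes 1 and 8 there were 0.313 members per Mb.

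RNA moved by chromosome too. Over the 11113 RefSeq accessions whose normalized count averaged 10 or more, the median log2 difference between the libraries labelled H1KO and those labelled WT was -0.50 on chromosome 1, 0.24 on chromosome 8 and 0.37 on chromosome 11, and between -0.07 and 0.09 on every other chromosome with a value, chromosome 14 included (-0.04). The column names inside the RNA tables give the genotypes the other way round, and with those names each sign turns: RNA of chromosome 1 would be higher and that of chromosome 8 lower in the knockout, which is also the direction of the peak numbers there. Chromosome 11 held 42 members (0.345 per Mb) and 34 H1-TKO-only peaks. Its ratio of distal H1-TKO to distal WT peaks was 0.904, beside 0.718 on chromosome 8 and 1.37 on chromosome 1. The ratio was 1.97 on chromosome 14, where the RNA median was near 0, so peak numbers and RNA did not go together on every chromosome. The part that these chromosome-wide differences have in the members' distribution was not tested.

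The RNA libraries, of 6951619 to 10538507 reads each, were checked before host genes were read. H1c, H1d and H1e are H1f2, H1f3 and H1f4 in current names. H1f2 had normalized counts of 18.7 and 7.37 in the libraries labelled WT and of 11.6 and 56.7 in those labelled H1KO. H1f3 had 1.1 and 0 against 3.88 and 41.4, and H1f4 had 0 and 2.11 against 5.43 and 19.6. The targeted genes were thus not lower in the libraries labelled H1KO, and H1f0, a linker histone outside the knockout, was at 1940 and 2120 against 571 and 464. Transcripts of replication-dependent histones lack poly(A) tails, and these 3 were low in every library. Groups below are the labels', and every direction reverses if the tables' own names hold. Of 10 mESC markers 8 were at 10 or more in all libraries, including Pou5f1 (2590 to 5120), with Nanog listed at 0 and Esrrb at no more than 3.27. The summed level of mESC markers was 49800 and 50700 in the libraries labelled WT and 29000 and 41500 in those labelled H1KO. Summed neural markers were at 213 and 245 against 2930 and 898, nearly all of it Nes, and fibroblast, primitive endoderm and trophoblast lists reached at most 571, 48.1 and 65.9. Their part in the differences below was not tested.

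Of 229 host genes in the RNA tables, 102 (44.5%, 38.0 to 51.2) averaged 10 or more normalized counts, against 45.1% of all 24121 genes and 47.4% (39.3 to 55.6) of hosts of kept distal peaks, and 34 were at 0 in all 4 libraries (14.8%, 10.5 to 20.1), against 22.1% (21.6 to 22.6) of all genes and 17 of 154 hosts of kept distal peaks. Genes with several accessions can be listed at or near 0 in these tables even where the cells use them, as with Nanog, so the listed values of Palld (10.9 or less per accession), Anks1b (9.31 or less), Nfix and Mid1 (0) cannot be read as levels. Zfp36l2 was at 858 and 751 in the libraries labelled WT and at 836 and 777 in those labelled H1KO, groups that overlap. Mgmt was at 250 and 282 against 168 and 212, a log2 difference of -0.49 that did not pass the test (limma adjusted p = 0.151).

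Of 389 accessions of host genes, 101 passed the filter on low values. In limma with Benjamini-Hochberg adjustment over all 11113 accessions, 11 of the 101 were higher in the libraries labelled H1KO (10.9%, 5.56 to 18.7) and 11 were lower (10.9%). The background was 10.7% higher (1188) and 9.84% lower (1094), so the shares among host genes were near those of all accessions. The median log2 difference was -0.21 over the 101 and 0.03 over all accessions. Without host genes on chromosomes 1, 8 and 11, a choice made after seeing the data, 8 were higher and 8 lower of 80 (10.0% each), beside 9.58% and 9.28% of the 8984 accessions left. Single libraries weighed on these counts: without the first or second library labelled WT, 2 and 4 were higher and 2 and 1 lower, while 3.57% and 3.47% of all accessions were higher and 1.85% and 1.79% lower. Without the first library labelled H1KO, 15 were higher (14.9%, with 25.1% of all accessions) and 35 lower (34.7%, with 24.1%). Without the second, 24 were higher (23.8%, with 23.1%) and 23 lower (22.8%, with 21.5%).

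Wnt3, which holds the widest member, had the largest rise among host genes. Its normalized counts were 3.31 and 6.32 in the libraries labelled WT and 37.2 and 48.0 in those labelled H1KO. The log2 difference was 2.95 (SE 0.61, limma adjusted p = 0.0178), on chromosome 11. The neighbouring Nsf, a vesicle fusion ATPase whose start is the nearest one to that member, was at 1600 and 1410 against 2500 and 2620 and was also higher (log2 0.77, adjusted p = 0.0101).

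Sall3, a spalt zinc finger gene, was at 8.81 and 11.6 in the libraries labelled WT and at 41.9 and 90.5 in those labelled H1KO (log2 2.50, SE 0.55, limma adjusted p = 0.0216). Efnb2 encodes the membrane ligand ephrin-B2 and held 2 members with scores of 81.35 and 85.79. It was at 70.5 and 90.6 against 317 and 216 (log2 1.70, SE 0.29, limma adjusted p = 0.0106), on chromosome 8. Prickle1, of the planar cell polarity pathway, was at 30.9 and 31.6 against 117 and 91.6 (log2 1.70, limma adjusted p = 0.0172), and its member scored 98.7. Chd7, a chromatin remodeller of neural crest development, was at 656 and 638 against 2090 and 1500 (log2 1.45, limma adjusted p = 0.00446). Neither library labelled H1KO fell into the range of those labelled WT for any of these genes, as the rule for naming required.

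Lower in the libraries labelled H1KO was 2010300C02Rik on chromosome 1, at 72.7 and 113 against 30.3 and 5.45 (log2 -2.69, SE 0.74, limma adjusted p = 0.042). Its edgeR adjusted p was 0.0549. Cdh22, a cadherin gene, was at 32.0 and 25.3 against 3.88 and 4.36 (log2 -2.52, limma adjusted p = 0.0322). Zbtb7c, a BTB zinc finger gene whose member scored 121.97, was at 93.7 and 90.6 against 15.5 and 36.0 (log2 -1.91, limma adjusted p = 0.0304). The sphingosine-1-phosphate receptor gene S1pr3 was at 102 and 137 against 55.9 and 27.3 (log2 -1.58, limma adjusted p = 0.0393). Matn3, which encodes the cartilage protein matrilin-3, was at 198 and 261 against 87.7 and 68.7 (log2 -1.54, SE 0.28, limma adjusted p = 0.012). The 2 groups did not overlap for any of these 5 genes, which the rule for naming required. Of the 6 genes with 3 members or more, Ostm1 alone had an accession that passed the filter on low values, and it was lower, at 434 and 456 against 236 and 171 (log2 -1.14, limma adjusted p = 0.0144).

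**Figure D4:**
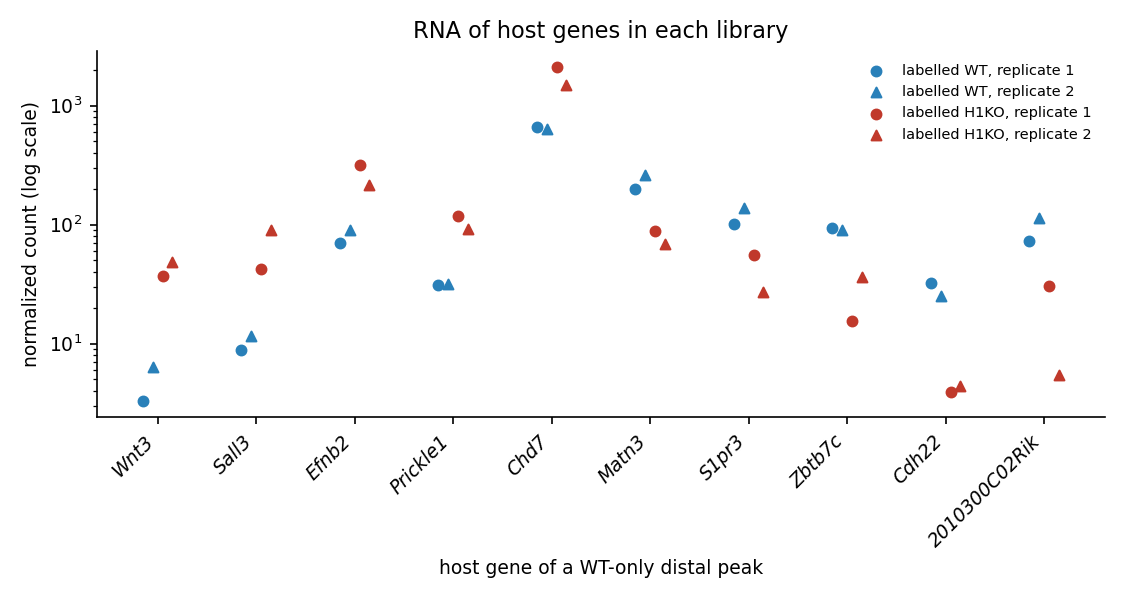
Normalized counts on a log scale in each of the 4 RNA libraries for the 10 host genes named by the rule, blue for libraries labelled WT and red for those labelled H1KO. From left to right the log2 difference goes from 2.95 for Wnt3 to -2.69 for 2010300C02Rik, and the tables' own column names give the opposite genotypes.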

How the data were processed

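The deposited ChIP-seq files used here hold 1 peak list per genotype, of replicate 1 (the labels also name a replicate 2, not analysed here), which the authors made by aligning reads to mm9 with Bowtie2 and calling peaks with MACS. The score of a peak in the deposited lists is the negative log10 of its p-value multiplied by 10, and the lists carry no read counts. Peaks were placed by their centre in GENCODE M1 (NCBIM37). Shares have 95% Clopper-Pearson intervals that cover counting error only. Sequence was read from NCBIM37 in windows of 300 bp.

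For RNA-seq, the authors mapped with Subread, counted with featureCounts and divided counts by DESeq2 size factors, which gave the deposited signal per accession. Whole reads could be recovered from 100% of values within a tolerance of 0.01, in totals of 6951619 to 10538507 a library. Of 34010 accessions 31305 (92.0%) were matched to an annotated symbol by names alone from RefSeq genes on GRCm38.p6, and 229 of 244 host genes had one. In R 4.3.3, limma 3.58.1 with a trend was fitted to log2(normalized count + 1) for accessions with a mean of at least 10, at an adjusted p under 0.05. edgeR 4.0.16 and DESeq2 1.42.0 on the recovered reads were alternatives. Steps were tested on simulated data. The study describes its RNA-seq duplicates as independent samples, and p-values measure the spread between these libraries. Regions named are the members with the highest scores (8), the widest (5), the farthest from a kept peak (5), those beside each limit and the longest runs. Genes named are the hosts or nearest genes of these, hosts of 3 or more members, and the 5 host genes with the largest change in each direction past the threshold without overlap. The members, lists and tests were chosen with earlier results of these data known. The other samples of the series were not analysed here.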

Additional observations from a re-analysis of the deposited data

How the results depend on the processing

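Requiring that 50% of a WT peak be covered gave a WT-only share of 67.7% and a median width of 243 bp. Counting an H1-TKO peak within 1 kb as shared gave 54.3% and 209.5 bp, and within 5 kb 51.6%, a median score of 56.2, a width of 206 bp and a distance to the nearest kept peak of 200597 bp. With distal set at over 5 kb from a start the distance was 140889 bp, and at over 20 kb it was 228431 bp with a width of 213 bp. A score of at least 60 in both lists left 431 members (49.7%) with a median score of 73.6 and a width of 371 bp. A WT score of at least 100 left 53 (16.0%) with a score of 122, a width of 623 bp and a distance of 256408 bp. Merging peaks within 1 kb gave a distance of 208713 bp.

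For RNA of host genes, where 11 accessions were higher and 11 lower in the libraries labelled H1KO, testing without a filter gave 7 and 7 of 224 (3.12% each, beside 3.38% and 3.02% of all accessions), and adding the genes nearest to intergenic members gave 30 and 30 of 286 (10.5% each). Leaving out 1 library gave 2 to 24 higher and 1 to 35 lower, on the assumption that the lone library of a group varies like the other group. With the replicate number as a block, 15 were higher and 19 lower (14.9% and 18.8%, beside 16.0% and 13.7% of all accessions), but libraries with the same number share only a number (their deviations from the group means correlated at 0.011). edgeR called 9 and 12 and DESeq2 12 and 12. The share of repeat-masked bases was not run, since the reference used here does not mark repeats. The uniqueness of 31-base words, chosen after seeing the data, was given instead. It counts exact copies only and does not measure the share of repeats.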
